A study of Rattus norvegicus with 4 samples.

Results

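Oxidative phosphorylation runs on 5 protein complexes of the inner mitochondrial membrane, and most of their subunits are encoded in the nucleus. The genes described here are those nuclear genes, taken by name from the rat gene tables: names beginning with Ndufa, Ndufb, Ndufc, Ndufs or Ndufv and a number, Sdha to Sdhd, names beginning with Uqcr, names of the Cox4 to Cox8 families, and names beginning with Atp5 and a letter. The name rule used no measured value and found 80 of 25810 gene rows, of which 75 had at least 20 reads over the 4 libraries. These 75 were 34 genes of complex I, 4 of complex II, 7 of complex III, 14 of complex IV and 16 of complex V, and all of them entered the comparison. The 5 others were Cox8b with 17 reads, Atp5hl1 with 8, Cox8c with 2, Cox6b2 with 1 and Ndufb4l1 with 0, and the gene just above the limit was Cox7a2l2 with 92. The name rule also took in 5 genes that are not subunits, among them Cox4nb, which encodes a protein of the endoplasmic reticulum membrane complex, and Cox7a2l, a factor of respiratory supercomplexes. The other three were Cox7a2l2, Atp5s and Atp5sl.

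As background, complex I takes electrons from NADH and complex II from succinate. Complex III passes them on to cytochrome c, and complex IV, cytochrome c oxidase, hands them to oxygen. Complexes I, III and IV pump protons, and complex V, the ATP synthase, uses the proton gradient to make ATP. Some subunits of complex IV exist as isoforms that differ between tissues: Cox6a2, Cox7a1 and Cox8b are known as the heart and skeletal muscle forms, and Cox4i2 as a form that is abundant in lung and induced by low oxygen.

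RNA-Seq was made from 2 clones of PC12, a cell line from a rat pheochromocytoma, a tumor of adrenal chromaffin cells. The wtPC12 clone, labelled wild type, had low levels of the transcriptional repressor REST, and the hrPC12 clone, earlier called PC12-27, had high levels, with no treatment in either. Each clone was read in 2 libraries. Each REST level was thus 1 clone, so differences that go with REST and other differences between the clones cannot be told apart. Rest itself stood at 43.0 and 132 normalized counts in wtPC12 and at 964 and 915 in hrPC12 (log2 FC 3.42, SE 0.57, adj. p value 0.0115), where normalized counts are reads scaled to library size with TMM factors. The libraries held 20975027 and 21999191 reads on genes in wtPC12 and 27246502 and 21634943 in hrPC12. Of the chromaffin markers, 5 of 6 tested fell in hrPC12 at an adjusted p under 0.05 (83.3%, against 16.3% of all genes tested). They were Th, Dbh, Chgb, Slc18a1 and Phox2a, and Ddc did not pass.

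Replicates of both clones stood apart for these genes. In wtPC12, replicate 1 was above replicate 2 in 74 of the 75 genes (98.7%, against 52.9% of all genes tested), Ndufs1 being the exception, and the median ratio of replicate 1 to replicate 2 was 1.48 against 1.03. In hrPC12, replicate 1 was above replicate 2 in 12 of 75 genes (16.0%, against 49.2% of all genes), with a median ratio of 0.883 against 0.997. Of the reads on genes, the 80 genes took 1.98% and 1.46% in the wtPC12 libraries and 1.10% and 1.24% in those of hrPC12. The part of this spread in the differences between clones was not tested, and the results without each library are given with them.

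The nuclear subunit genes were mostly lower in hrPC12. At an adjusted p under 0.05 (edgeR's quasi-likelihood test, Benjamini-Hochberg adjustment over 13726 genes), 15 of 75 fell, 20%, and 0 rose. Over all genes tested, 32.4% passed, 16.3% lower and 16.1% higher in hrPC12, so the share that fell was near that of the whole table and the share that rose was below it. At an unadjusted p under 0.05, 31 of the 75 were lower, against 22.7% of all genes, and 1 was higher, against 23.6%. The log2 FC, hrPC12 over wtPC12, was negative in 63 genes, against 47.7% of all genes, and positive in 12. Its median was -0.57, or 1.49-fold lower, beside a median of 0.06 over all genes tested. In 53 genes (70.7%) both hrPC12 libraries lay below both wtPC12 libraries, against 35.6% of all genes. In 4 genes, Ndufa5, Sdhb, Atp5j2 and Atp5s, both lay above, against 37.9%, and in 18 the clones overlapped. The study called a gene at an adj. p value under 0.01 with a log2 FC above 2 or below -2. At these limits 10.3% of all genes passed, 5.46% lower and 4.84% higher in hrPC12, and of the 75 Cox4i2 passed, as lower. In bulk RNA, fewer cells that express a gene and less of its RNA per cell cannot be told apart.

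Both the count of genes that fell and the median depended on single libraries, though the median was negative without any of them. Without wtPC12 replicate 1, 5 genes fell (Atp5e, Cox4i2, Cox7c, Cox8a and Ndufv3) and Ndufa5 rose, with a median of -0.32. Without wtPC12 replicate 2, 42 fell, with a median of -0.89. Without hrPC12 replicate 1, 2 fell (Atp5e and Cox4i2), with a median of -0.52, and without hrPC12 replicate 2, 9 fell (Atp5e, Cox4i2, Cox6b1, Cox7b, Cox7c, Cox8a, Ndufa1, Ndufa3 and Ndufa10), with a median of -0.73. Cox4i2 and Atp5e fell in each of these fits. Without the 5 genes that are not subunits, 15 of 70 fell and the median was -0.63.

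**Figure D1:**
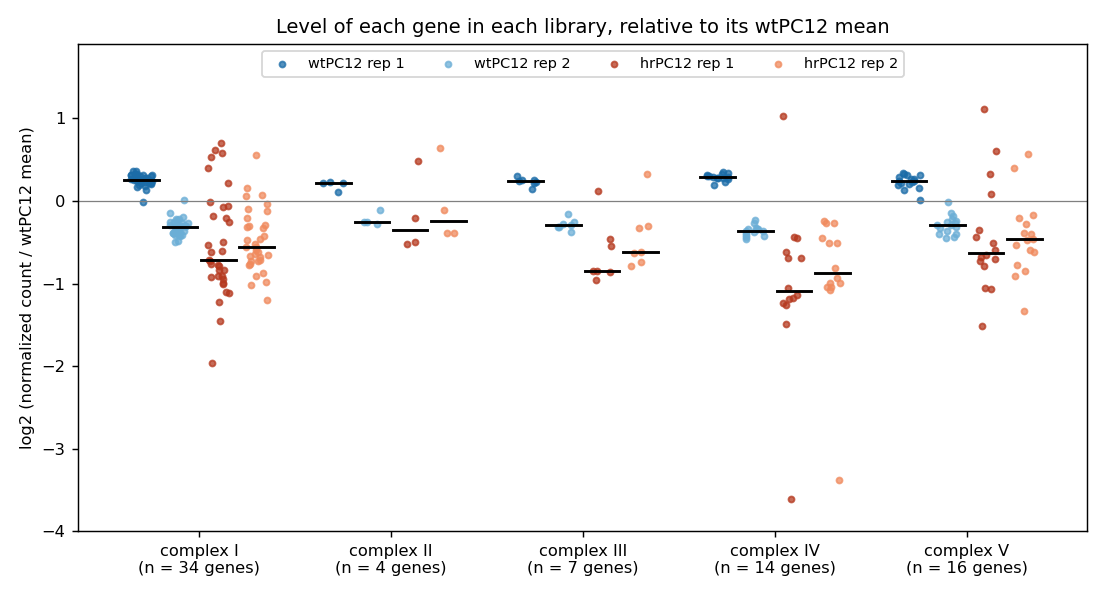
Each point is 1 gene in 1 library, as the log2 ratio of its normalized count to its mean over the wtPC12 libraries, by complex, with bars at the median. The wtPC12 replicate 1 points sit above those of replicate 2 for all genes but Ndufs1, and the hrPC12 medians lie at or below those of both wtPC12 libraries except in complex II, where hrPC12 replicate 2 is level with wtPC12 replicate 2.

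Promoter sequences were at hand for 65 of the 75 genes, from RefSeq on GRCr8 (250 bases before to 50 after the start). The reads were counted on another build, rn4. The median GC content of these promoters was 57.3%, against 51.7% over all 33469 promoters, and the median number of CpG was 20 against 7. Exact matches on either strand were sought to core motifs of factors known at promoters of mitochondrial genes. The NRF1 motif GCGCATGCG stood in 5 (7.69%, against 1.52% of all promoters), the ETS motif CCGGAAGT, which the GABP factors bind, in 8 (12.3% against 3.81%), and the YY1 motif AAGATGGCG in 10 (15.4% against 1.73%). At least 1 of these motifs, whose letters do not overlap one another in the promoters shown, stood in 22 promoters, 33.8%, against 6.64% of all. The RE1 motif, which REST binds, was sought as a pattern with alternative letters and stood in 18 of all 33469 promoters (0.0538%). It had 0 matches in the 65, and a pattern this rare cannot tell these promoters from others. No promoter was at hand for Cox4i2. Of the 14 promoters at hand of genes that fell, 1 held the NRF1 motif, 2 the ETS motif and 2 the YY1 motif, and of the 51 others 4, 6 and 8.

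The 4 promoters of genes that fell and held a motif are shown, 5′ to 3′ on the strand of the gene, with the motif in capitals. Cox5b lies at chr9:46417587-46417886 on the plus strand and Cox8a at chr1:213833574-213833873 on the minus strand, both with the ETS motif. In Cox8a the motif is read on the opposite strand, so its capitals show the reverse complement, and it occurs at 2 positions. Ndufb8, at chr1:253362887-253363186 on the minus strand, and Uqcrc1, at chr8:118467973-118468272 on the plus strand, hold the YY1 motif close to the start, and Uqcrc1 holds the NRF1 motif before it.
Cox5b: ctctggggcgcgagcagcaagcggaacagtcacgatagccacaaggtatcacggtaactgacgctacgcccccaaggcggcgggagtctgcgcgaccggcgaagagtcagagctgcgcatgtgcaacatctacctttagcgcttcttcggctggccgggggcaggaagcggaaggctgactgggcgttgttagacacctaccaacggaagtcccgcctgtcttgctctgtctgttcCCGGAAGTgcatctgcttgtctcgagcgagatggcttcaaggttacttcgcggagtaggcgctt
Cox8a: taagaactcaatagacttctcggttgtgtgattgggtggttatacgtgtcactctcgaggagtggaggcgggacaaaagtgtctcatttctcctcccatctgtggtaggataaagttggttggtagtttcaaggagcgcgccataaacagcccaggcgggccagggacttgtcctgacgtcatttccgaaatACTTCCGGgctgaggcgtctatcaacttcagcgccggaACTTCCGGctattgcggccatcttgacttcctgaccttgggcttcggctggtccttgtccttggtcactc
Ndufb8: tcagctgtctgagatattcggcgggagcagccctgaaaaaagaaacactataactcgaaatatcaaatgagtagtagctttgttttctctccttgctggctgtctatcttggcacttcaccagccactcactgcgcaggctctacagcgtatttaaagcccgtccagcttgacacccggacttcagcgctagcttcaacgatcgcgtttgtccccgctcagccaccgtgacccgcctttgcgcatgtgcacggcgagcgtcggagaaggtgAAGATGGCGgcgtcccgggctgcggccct
Uqcrc1: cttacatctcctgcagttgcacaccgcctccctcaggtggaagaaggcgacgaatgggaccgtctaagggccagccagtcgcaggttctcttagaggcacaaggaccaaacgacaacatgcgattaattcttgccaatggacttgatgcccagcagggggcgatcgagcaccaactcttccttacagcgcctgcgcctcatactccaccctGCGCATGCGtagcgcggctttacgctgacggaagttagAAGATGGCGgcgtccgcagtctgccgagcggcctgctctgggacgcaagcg
A match says where these letters stand, not that a factor binds there.

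In complex I, 4 of 34 genes fell, Ndufa1, Ndufa3, Ndufb8 and Ndufv3 (11.8%, against 16.3% of all genes tested). The median log2 FC of the complex was -0.67, and 22 of 34 were lower in hrPC12 with no overlap (64.7%, against 35.6%). Ndufa3, an accessory subunit of the membrane arm, stood at 1753 and 971 normalized counts in wtPC12 and at 497 and 594 in hrPC12. The clones did not overlap, and the level was 2.50-fold lower (log2 FC -1.32, SE 0.34, adj. p value 0.0395, edgeR). Ndufv3, an accessory subunit of the module that binds NADH, stood at 3572 and 2585 in wtPC12 and at 1543 and 1527 in hrPC12. Its hrPC12 libraries were nearly level, both below wtPC12 (log2 FC -1.0, SE 0.22, adj. p value 0.0248). Ndufb8, an accessory subunit of the membrane arm whose promoter is shown above, had 9602 and 6261 normalized counts in wtPC12 and 3694 and 4227 in hrPC12. Ndufa1, a small membrane subunit needed for assembly, had 4174 and 2772 against 1602 and 1902. Both were lower with no overlap, with log2 FC of -1.0 (SE 0.26, adj. p value 0.0381) and -0.99 (SE 0.26, adj. p value 0.0397).

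The test was passed by none of the core subunits of complex I, which carry its redox centers or build its quinone site. Of Ndufv1, Ndufv2, Ndufs1, Ndufs3, Ndufs7 and Ndufs8, 0 of 6 passed, with a median log2 FC of -0.34, against 4 of 28 and -0.69 for the accessory subunits, a difference that was not tested. Ndufs1, the large iron-sulfur subunit, stood at 6220 and 6285 in wtPC12 and at 5433 and 5743 in hrPC12. Those libraries lay close together in both clones and did not overlap (log2 FC -0.16, SE 0.16). Ndufa5, an accessory subunit of the peripheral arm, had the highest log2 FC of the complex, with 2414 and 1454 in wtPC12 and 2541 and 2848 in hrPC12 (log2 FC 0.48, SE 0.28, adj. p value 0.238). It did not pass the test in the fit over all 4 libraries. Ndufa4, named for complex I and known today as part of cytochrome c oxidase, was with Ndufb8 among the 2 genes of the complex with the highest mean normalized count. It stood at 10046 and 6032 in wtPC12 and at 5564 and 6430 in hrPC12, with overlap (log2 FC -0.42, adj. p value 0.293).

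Ndufa10, an accessory subunit of the membrane arm, was added after its values were seen, because its hrPC12 replicates differed most. It had 998 and 824 normalized counts in wtPC12 and 234 and 579 in hrPC12 (log2 FC -1.17, SE 0.46, adj. p value 0.112), and it passed without hrPC12 replicate 2 (log2 FC -2.01, adj. p value 0.00958) and with DESeq2. Its adj. p value over all alternatives lay between 0.00958 and 0.375. The gene Ndufa10l1, which by its name is a copy of Ndufa10, stood at 2549 and 1974 against 2150 and 1855, and reads that fit both could be split between them, so the values of both are uncertain. Of the complex I genes outside the name rule, Ndufab1, the acyl carrier subunit, and the row NDUV3_RAT had log2 FC of -0.74 (adj. p value 0.0839) and -1.17 (adj. p value 0.268).

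In complex II, succinate dehydrogenase, 0 of 4 genes passed, against 32.4% of all genes tested, with a median log2 FC of -0.30. Sdha, the flavoprotein, stood at 7197 and 6187 normalized counts in wtPC12 and at 4742 and 5121 in hrPC12 (log2 FC -0.44, SE 0.17, adj. p value 0.107). Sdhd, a membrane anchor, stood at 6340 and 4554 against 3780 and 4175 (log2 FC -0.45, adj. p value 0.166). Both lay lower in hrPC12 with no overlap. Sdhb, the iron-sulfur subunit, lay the other way, at 2658 and 1910 in wtPC12 and at 3193 and 3574 in hrPC12 (log2 FC 0.57, SE 0.22, adj. p value 0.107), again with no overlap. It was the 1 gene of the 75 that was higher at an unadjusted p under 0.05. Complex II is the complex with no subunit from mitochondrial DNA.

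In complex III, 1 of 7 genes fell (14.3%, against 16.3% of all genes tested), with a median log2 FC of -0.73. In all, 6 of 7 were lower with no overlap (85.7%, against 35.6%). Uqcrc1, a core protein on the matrix side whose promoter is shown above, had 10989 and 7931 normalized counts in wtPC12 and 4863 and 5466 in hrPC12. It was 1.83-fold lower in hrPC12 (log2 FC -0.87, SE 0.22, adj. p value 0.0378). Uqcrc2, the partner core protein, stood at 6732 and 5475 against 4432 and 4951 (log2 FC -0.38, SE 0.19, adj. p value 0.172). Its clones did not overlap either. Uqcrh, the hinge subunit at the docking site of cytochrome c, had 2873 and 1939 in wtPC12 and 2618 and 3014 in hrPC12 (log2 FC 0.23, SE 0.24, adj. p value 0.499), and its clones overlapped.

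Complex IV held 8 of the 15 genes that fell, out of 14 tested (57.1%, against 16.3% of all genes tested). Its median log2 FC was -0.98, and 12 of 14 were lower with no overlap (85.7%, against 35.6%). The lowest log2 FC of all 75 was that of Cox4i2, the low-oxygen isoform of the regulatory subunit 4. It had 39287 and 22497 normalized counts in wtPC12 and 2531 and 2976 in hrPC12. The lower wtPC12 library was far above the higher hrPC12 library, and the level was 11.2-fold lower in hrPC12 (log2 FC -3.49, SE 0.34, adj. p value 0.00245, edgeR). Leaving out each library in turn gave log2 FC between -3.83 and -3.06, and its adj. p value over all alternatives lay between 1.99e-22 (DESeq2) and 0.0144 (edgeR without wtPC12 replicate 2), the latter past the study's limit of 0.01. Cox4i1, the widely expressed isoform, fell less, with 18458 and 11758 in wtPC12 and 6882 and 7925 in hrPC12 (log2 FC -1.03, SE 0.27, adj. p value 0.0408). Within a library, where transcript length cancels between clones, the reads of Cox4i2 over those of Cox4i1 were 2.13 and 1.91 in wtPC12 and 0.368 and 0.376 in hrPC12. This ratio was close between replicates in each clone, and it fell by 2.44 on the log2 scale, or 5.43-fold, from wtPC12 to hrPC12 (exact permutation test, 2-sided, p = 0.33, the smallest that 2 against 2 libraries allow).

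**Figure D2:**
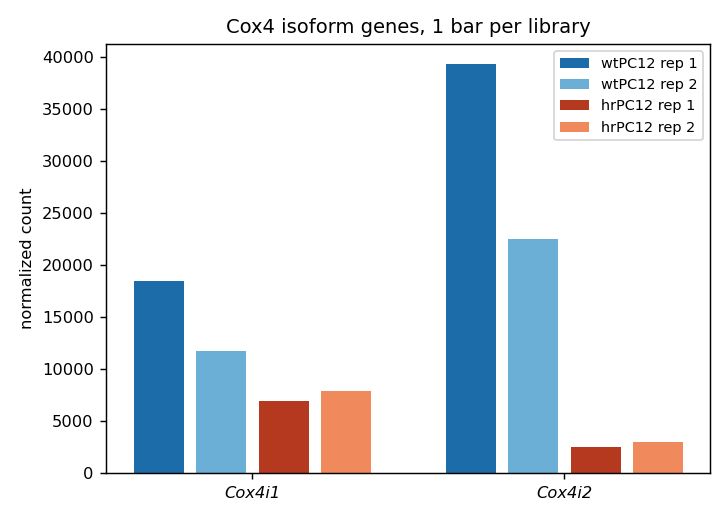
Bars give the normalized count of Cox4i1 and Cox4i2 in each of the 4 libraries. Both genes are lower in hrPC12, Cox4i2 by 11.2-fold and Cox4i1 by 2.04-fold, and wtPC12 replicate 1 is above replicate 2 for both.

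The other small subunits of complex IV that fell lay between log2 FC -1.25 and -0.93. Cox6b1, which faces the intermembrane space, stood at 9721 and 5866 normalized counts in wtPC12 and at 2778 and 3796 in hrPC12 (log2 FC -1.25, SE 0.31, adj. p value 0.0362). Cox8a, the widely expressed isoform of subunit 8, stood at 11029 and 7234 against 3820 and 4328 (log2 FC -1.16, SE 0.25, adj. p value 0.0252). Cox7c and Cox7b, small membrane subunits, each showed the same picture of both hrPC12 libraries below both of wtPC12. Cox7c had 9560 and 6305 against 3510 and 3850 (log2 FC -1.11, SE 0.25, adj. p value 0.0272). Cox7b had 6880 and 4289 against 2380 and 2803 (log2 FC -1.11, SE 0.28, adj. p value 0.0355). Cox5b, a zinc-binding subunit on the matrix side, and Cox7a2, the widely expressed isoform of subunit 7a, were lower too. Cox5b stood at 10548 and 6234 against 3672 and 4229 (log2 FC -1.09, SE 0.29, adj. p value 0.0434). Cox7a2 stood at 8471 and 5561 against 3390 and 3997 (log2 FC -0.93, SE 0.26, adj. p value 0.0469).

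Of the 6 genes under complex IV that did not pass, 3 were subunits. Cox6a1, the widely expressed isoform of subunit 6a, stood at 17015 and 12091 in wtPC12 and at 9022 and 10634 in hrPC12, with no overlap (log2 FC -0.57, SE 0.24, adj. p value 0.125). Cox5a and Cox6c had log2 FC of -0.56 and -0.60. The 3 genes that are not subunits were nearer to no change or above it: Cox4nb at -0.35, Cox7a2l at -0.33 and Cox7a2l2 at 0.53. Cox7a2l2 rests on few reads, 19 and 14 in wtPC12 and 44 and 15 in hrPC12, and its clones overlapped.

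The muscle isoforms of complex IV had few reads. No row named Cox6a2 or Cox7a1 was found by the name rule, so Cox7a1 was not analysed here. A row with the UniProt entry name CX6A2_RAT, that of Cox6a2, had 0 and 1 reads in wtPC12 and 20 and 18 in hrPC12. Its wtPC12 libraries were at or under a floor of 3 reads per library, and against that floor hrPC12 was at least 5.34-fold higher (adj. p value 0.0164, edgeR, over all 4 libraries). It kept an adj. p value under 0.05 without each library except wtPC12 replicate 2, where it was not tested for want of reads in wtPC12. Cox8b, the heart and muscle isoform of subunit 8, had 0 and 0 reads in wtPC12 and 4 and 13 in hrPC12. It was not tested, since it had no reads in wtPC12, and was at least 2.51-fold higher in hrPC12 against the floor. That bound was 1.03 without hrPC12 replicate 2 and 4.00 without hrPC12 replicate 1. Cox8c and Cox6b2, isoforms known from testis, had at most 1 read in any library.

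**Figure D3:**
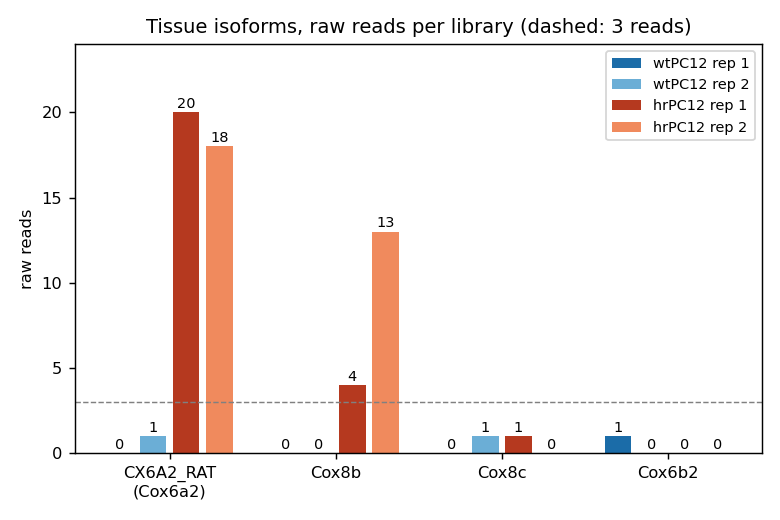
Bars give the raw reads of 4 tissue isoforms of complex IV in each library, with a dashed line at 3 reads. CX6A2_RAT reached 20 and 18 reads and Cox8b 4 and 13 in hrPC12, and all wtPC12 bars stand at 0 or 1.

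Other muscle genes were not all higher in hrPC12. Of the striated muscle markers, 7 of 12 tested rose in hrPC12 (58.3%, against 16.1% of all genes tested) and 0 fell. The 7 were Acta1, Actc1, Tnnt3, Tnni1, Tnni2, Myh2 and Mb. The summed level of the markers was 640 and 376 normalized counts in wtPC12 and 5794 and 5942 in hrPC12. Most of the hrPC12 sum was Myh2, at 3972 and 3886. Myl1 was at 0 reads in both wtPC12 libraries and at 86 and 73 in hrPC12. Of the 5 that did not pass, Ckm, the muscle creatine kinase, and Myh7 were higher with no overlap (log2 FC 1.18 and 2.47, adj. p values 0.0796 and 0.0501), Des and Myh6 were lower with no overlap (log2 FC -1.99 and -0.72, adj. p values 0.0527 and 0.411), and Tnnt2 overlapped between the clones (log2 FC 0.19). Among markers of white blood cells, 2 of 3 tested rose, Cd68 and Mpeg1 (66.7%, against 16.1% of all genes tested). The summed level of these markers was 37.2 and 36.1 against 1687 and 1508. Most of the hrPC12 sum was Mpeg1, at 1602 and 1413, while Ptprc had at most 1 read in any library. The part of other cells in the isoform reads was not tested.

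In complex V, 2 of 16 genes fell, a smaller share than the 16.3% of all genes tested, with a median log2 FC of -0.53. Of the 16, 11 were lower with no overlap (68.8%, against 35.6%). Atp5e, the epsilon subunit of the central stalk, stood at 2352 and 1563 normalized counts in wtPC12 and at 687 and 779 in hrPC12. It was 2.67-fold lower in hrPC12 (log2 FC -1.42, SE 0.27, adj. p value 0.0171). Atp5g1 encodes the c subunit of the proton-driven ring, and had 8090 and 5607 against 3274 and 3656 (log2 FC -0.98, SE 0.23, adj. p value 0.0313). The clones did not overlap for either gene. The ring is encoded by 3 genes that give the same mature protein, and the other two, Atp5g2 and the row AT5G3_RAT, did not pass. Atp5g2 stood at 11607 and 7104 against 5409 and 6187 (log2 FC -0.69, adj. p value 0.115), and AT5G3_RAT had a log2 FC of -0.72 (adj. p value 0.0947). The ratio of Atp5g1 to AT5G3_RAT differed between the clones by -0.28 on the log2 scale (exact permutation p = 0.33, the smallest possible here). That of Atp5g2 to AT5G3_RAT differed by 0.03 (exact permutation p = 0.67).

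The main subunits of the catalytic head of complex V did not pass. Atp5b, the beta subunit, had 56353 and 46668 normalized counts in wtPC12 and 40259 and 44678 in hrPC12 (log2 FC -0.28, SE 0.22, adj. p value 0.365). Atp5a1, the alpha subunit, had 11648 and 9239 against 15877 and 9305 (log2 FC 0.27, SE 0.31, adj. p value 0.522). Atp5b was lower with no overlap, while the wide gap between the hrPC12 replicates of Atp5a1 left an overlap, and its log2 FC was -0.17 without hrPC12 replicate 1. Atp5j2, subunit f of the membrane part, had the highest log2 FC of the 75, with 1696 and 1071 against 2985 and 1831 (log2 FC 0.80, SE 0.35, adj. p value 0.133).

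Atp5a1 and Atp5j2 were 2 of 6 members that lay in runs of neighbouring genes with more counts in hrPC12 replicate 1 than in replicate 2, along the order of genes on GRCr8. A run was at least 5 genes for which the median over 7 neighbours of the log2 ratio of the replicates was above 0.4. Over the table, 1281 of 9641 placed genes, 13.3%, lay in such runs. The other members in runs were Atp5h, Cox7a2l2, Ndufb7 and Ndufs4, and the ratio of replicate 1 to replicate 2 in the 6 lay between 1.59 and 2.45. High ratios also stood outside runs, at 2.03 in Ndufs6, 1.78 in Ndufv2 and 1.57 in Ndufs7. None of the 15 genes that fell lay in a run, and without the 6 the median log2 FC was -0.66. Runs were picked by the ratio of the hrPC12 replicates, which also enter the log2 FC, so neither value is a test. With 6 of 75 members in runs, few of the 15 would lie there in any case.

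**Figure D4:**
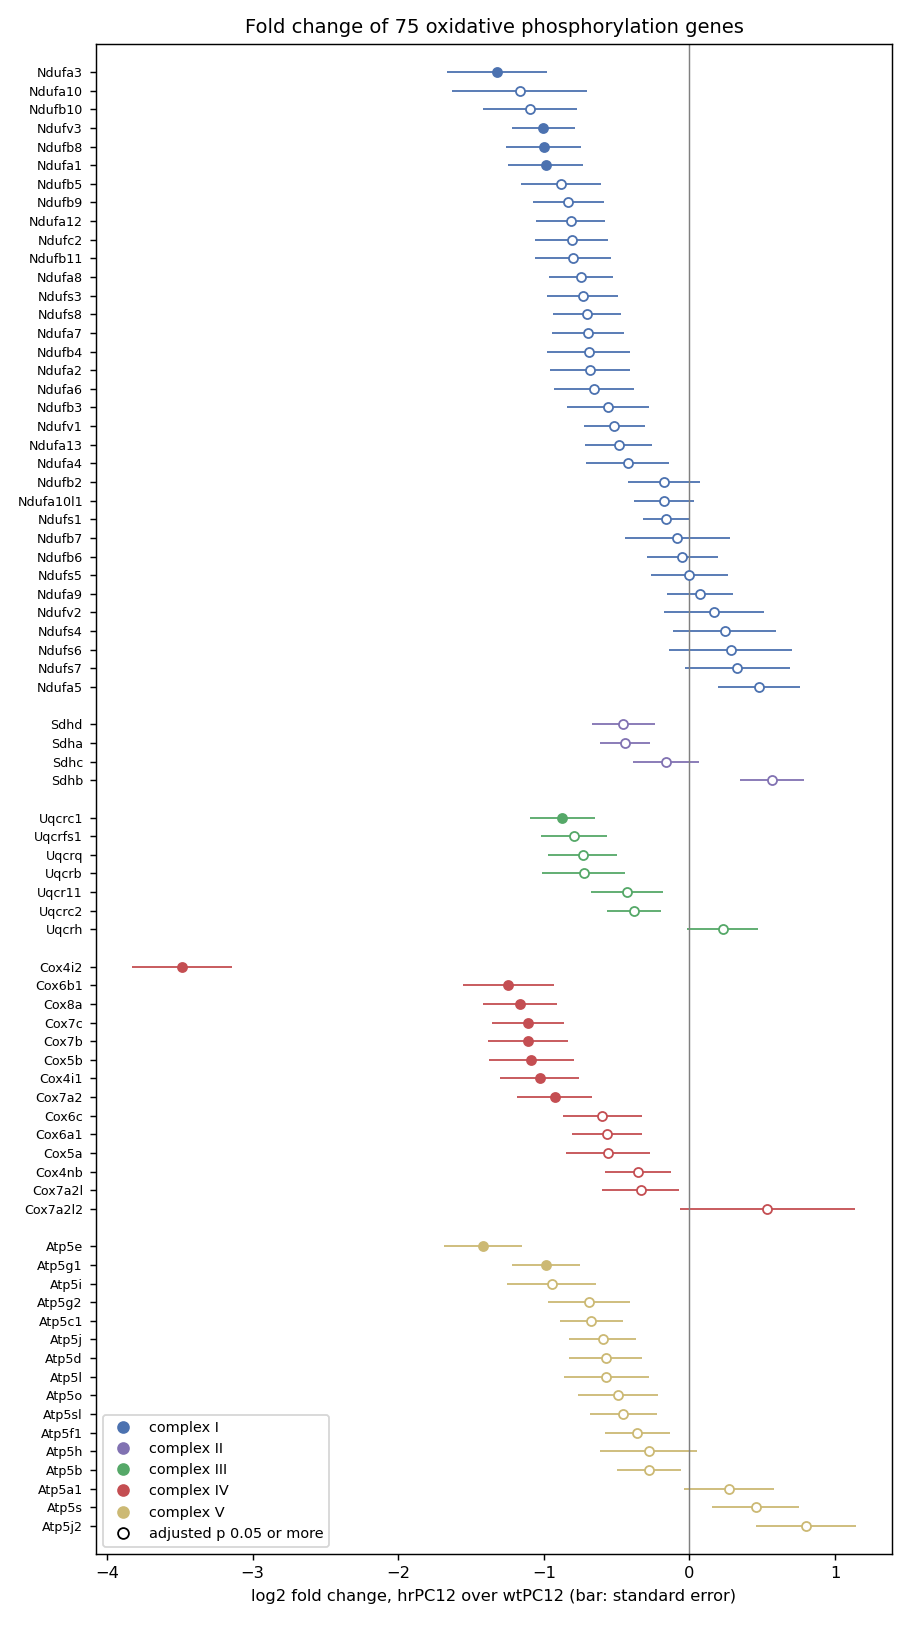
Points give the log2 FC, hrPC12 over wtPC12, of the 75 genes by complex, with bars of 1 standard error on either side, filled where the adjusted p was under 0.05. The 15 filled points lie between -3.49 and -0.87, and 12 of the 75 points lie above 0.

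Few of the genes that work with the complexes passed the test. The share was 14.3% of carriers and feeders, 4.17% of assembly factors and 8.33% of regulators, against 32.4% of all genes tested. Of 14 electron carriers and feeders tested, 1 rose and 1 fell. Cycs, cytochrome c itself, rose from 2584 and 1845 normalized counts in wtPC12 to 4852 and 4181 in hrPC12 (log2 FC 1.03, SE 0.23, adj. p value 0.0265). Coq6, an enzyme of ubiquinone synthesis, fell (log2 FC -0.97, adj. p value 0.0396). Cycs lost its call without wtPC12 replicate 2 and without hrPC12 replicate 1. Coq6 lost it without wtPC12 replicate 1 and without either hrPC12 replicate. Of 24 assembly factors tested, 1 fell, Ecsit, a factor of complex I (log2 FC -0.87, adj. p value 0.0387), and 0 rose. Of 12 regulators of mitochondrial genes, 1 rose and 0 fell. It was Gabpa, the DNA-binding part of the GABP factor of the ETS family, which stood at 1656 and 2087 in wtPC12 and at 3436 and 3429 in hrPC12 (log2 FC 0.87, SE 0.19, adj. p value 0.0246). Nrf1 at 0.14 and Tfam, the packaging protein of mitochondrial DNA, at -0.39 did not pass. Ecsit and Gabpa lost their calls under the same 3 omissions as Coq6.

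Cox4i2 is known as a gene induced in low oxygen, and other genes of the low-oxygen response were split between the clones. Their list mixes induced genes with regulators of the response, among them Epas1, Hif1a and Arnt. Of 18 tested, 4 fell and 4 rose (44.4%, against 32.4% of all genes tested). Epas1, which encodes HIF-2 alpha, stood at 12733 and 18885 normalized counts in wtPC12 and at 2385 and 2420 in hrPC12 (log2 FC -2.72, SE 0.25, adj. p value 0.0021). Vegfa, a blood vessel growth factor, fell with a log2 FC of -1.49 (adj. p value 0.00406), Bnip3, a mitophagy receptor, with -1.03 (adj. p value 0.0386) and Egln1, an oxygen sensor, with -0.71 (adj. p value 0.0495). Slc2a1, a glucose transporter, rose with 2.09 (adj. p value 0.00963), Car9, a carbonic anhydrase, with 2.45 (adj. p value 0.00687), Ndrg1 with 2.23 (adj. p value 0.00903) and Ankrd37 with 1.6 (adj. p value 0.0360). Hif1a did not pass (log2 FC -0.37). Egln1 lost its call in each fit without 1 library, Slc2a1 without wtPC12 replicate 2, Ankrd37 without wtPC12 replicate 2 or hrPC12 replicate 1, and Bnip3 without wtPC12 replicate 1 or either hrPC12 replicate. In hrPC12, Slc2a1 and Ankrd37 were 1.78-fold and 1.65-fold higher in replicate 1 than in replicate 2.

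The 13 subunit genes of mitochondrial DNA, which complexes I, III, IV and V share with the nuclear genes, did not pass in either direction. This was 0 of 13, against 32.4% of all genes tested. The log2 FC was positive in 10 and negative in 3, against 47.7% negative over all genes. For the 13, the log2 FC had a median of 0.23 and lay between -0.24 and 0.68, with adj. p values from 0.147 to 0.931. Their reads were 2.20% and 1.65% of the reads on genes in wtPC12 and 2.62% and 1.64% in hrPC12. For each nuclear subunit read there were 1.11 and 1.13 mitochondrially encoded reads in wtPC12 and 2.38 and 1.33 in hrPC12. The ratio was higher in both hrPC12 libraries, and hrPC12 replicate 1, in which each of the 13 genes was above replicate 2 by 1.17-fold to 1.81-fold, was far from the others.

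**Figure D5:**
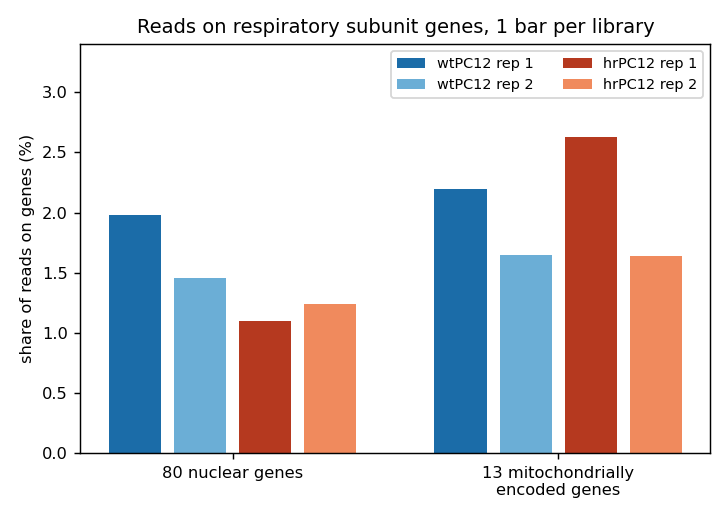
Bars give the percentage of reads on genes that fell on the 80 nuclear genes and on the 13 mitochondrially encoded subunit genes in each library. The nuclear share is 1.98% and 1.46% in wtPC12 and 1.10% and 1.24% in hrPC12, while the mitochondrial share is highest in hrPC12 replicate 1, at 2.62%.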

How the data were processed

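Total RNA of 2 libraries per clone was made into Illumina TruSeq v2 libraries, a kit that keeps no strand, and sequenced on a HiSeq 2000. The submitters' processing notes name TopHat2 2.0.4, HTSeq 0.5.3, DESeq 1.9.12 and the build rn4. The authors deposited raw counts per gene and library, with 5 closing totals of reads without a gene, which were left out. Reads outside genes made up 49.9% to 55.9% and reads without a unique position 5.85% to 9.13% of each library, so genes with close copies can be undercounted, and a gene cannot be told from an antisense neighbour. The authors' table of their own comparison (means, fold changes, p values) was not used, and 0 columns of values per sample were left unused.

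Counts were compared in R 4.3.3 with edgeR 4.0.16 and limma 3.58.1 (TMM factors, glmQLFit with the legacy option, glmQLFTest, Benjamini-Hochberg adjustment over 13726 genes that had reads in each clone and a mean normalized count of 5 or more, the study's filter). The study's DESeq was not used here. The estimated common dispersion was 0.0745, and the SE is the log2 FC divided by the square root of F. A floor of 3 reads equals 2.54 to 3.49 normalized counts, and it covers counting error only. No source says that replicates were separate cultures, so p values measure the spread between these libraries, which differed beyond sampling noise. Motif letters were set with the promoter sequences at hand. Isoform ratios had 1 read added to each count. Alternatives included RLE factors, library totals, other filters, DESeq2 1.42.0 and the omission of each library. The tests were checked on simulated data of 13625 genes, with 100 genes changed 2-fold and 100 changed 8-fold. At 2-fold, edgeR found 12 of 100 and DESeq2 found 21, and at 8-fold both found 100. A gene that did not pass can thus still have changed by about 2-fold. In the data 32.4% of genes passed, a far larger share than was changed in that check, and the adjustment depends on this share. How often a 2-fold change passes in the data themselves was not tested.

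The members and lists were chosen with earlier results of these data known. Values per library are given for members with an adjusted p under 0.05, isoform pairs, the 2 members with the most normalized counts per complex, and the highest and lowest log2 FC per complex. Other genes come from lists of carriers, assembly factors, regulators, low-oxygen genes, mitochondrially encoded subunits and cell markers. No transcript lengths were used, so levels are not compared between genes.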

Additional observations from a re-analysis of the deposited data

How the results depend on the processing

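All 15 genes that fell also fell under RLE factors (23 fell in all), library totals (18), no filter on low counts (24), another count filter (16), DESeq2 (29) and the newer quasi-likelihood method (15). Omitting 1 library at a time, 2 to 42 genes fell, 0 to 1 rose and 0 to 2 were lower at the study's thresholds, and the median log2 FC lay from -0.89 to -0.32, from -0.95 to -0.33 in complex I, from -0.47 to -0.067 in complex II, from -0.98 to -0.38 in complex III, from -1.26 to -0.65 in complex IV and from -0.82 to -0.20 in complex V, each lowest without wtPC12 replicate 2 and highest without wtPC12 replicate 1. Over all genes tested, the same omissions gave 1433 to 2374 genes that fell, 0 to 859 lower and 0 to 962 higher at the study's thresholds, and a median from -0.0068 to 0.091. That median was 0.13 with library totals and 0.16 with no filter, which also gave 1127 genes higher at the study's thresholds. The log2 FC turned its direction under an omission in 15 of the 75 genes, of which 0 had passed edgeR's test on all libraries. Among those described by library were Uqcrh (-0.029 to 0.51), Cox7a2l2 (-0.26 to 0.98) and Atp5a1 (-0.17 to 0.56). With 0.5 reads added in place of 1, the log2 ratio of Cox8b to Cox8a differed between the clones by 4.86 in place of 3.96, and that of CX6A2_RAT to Cox6a1 by 4.80 in place of 4.13. The fit with 3 libraries takes the lone library of a clone to vary like the pair of the other clone. No paired analysis was possible because the labels number the libraries of the clones differently, and the replicate numbers used here only name them. Apart from the added reads, whose effect follows from the low counts, and from the omissions, which leave fewer libraries, the cause was not tested.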
